A study of Arabidopsis thaliana with 12 samples.

Results

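The first doubling of DNA content in the root cortex was described by setting nuclei sorted at 4C against nuclei sorted at 2C, where C is the DNA content of an unreplicated haploid genome. The members were chosen by their titles: 3 arrays of 4C nuclei and 3 arrays of 2C nuclei, 6 of the 12 arrays of the series. The other arrays, 3 of 8C and 3 of 16C nuclei, entered the comparison only through the shared estimate of the spread. All groups came from roots of 5-day-old Arabidopsis thaliana seedlings of the Col-0 ecotype, grown in continuous light. All carried the same reporter, pCO2:YFP-H2B, a histone H2B joined to yellow fluorescent protein and driven by the CO2 promoter, which is active in the cortex, the tissue between epidermis and endodermis. Roots of many seedlings were pooled, cut below the hypocotyl and chopped, and nuclei were sorted by reporter fluorescence and DAPI staining. Arrays of 1 class are labelled as biological replicates, with no plants or sorts named, so that p-values measure the spread between these samples, which may be technical.

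A diploid plant nucleus holds 2C before replication. After S phase it holds 4C and is either in G2, waiting to divide, or on its way into the endocycle, in which DNA is copied again without division. DNA content alone does not separate these fates. Helicase loading by the MCM complex, priming by DNA polymerase alpha with its primase, and elongation by the delta and epsilon polymerases belong to late G1 and S phase, whereas Aurora kinases, the spindle checkpoint and topoisomerase II act in G2 and mitosis. Cortex cells that leave the meristem enlarge, loosen their walls and take on transport and defence functions.

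The measured values were log2 signals of the ATH1 array after RMA (robust multi-array average, which makes the signal distributions of the arrays alike). Of the 22746 probe sets compared, 13513 were matched to 1 gene, 503 to several and 8730 to none in the probe table used here. Across the 4C and 2C arrays the median probe set averaged 5.34, and no detection call went with the signals. Since RMA aligns the distributions, total RNA per nucleus cannot be compared. In these sorted pools, fewer nuclei of a kind and less RNA per nucleus cannot be told apart.

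The 2C class was more widely spread than the 4C class, and the array of 2C replicate 1 stood apart from its class. The SD within the class exceeded 1 log2 unit at 161 probe sets in 4C and at 848 in 2C. The array of 2C replicate 1 lay over 1 log2 unit above both others of its class at 477 probe sets and as far below them at 781. For the remaining 5 arrays of both classes these numbers were 63 to 213 above and 15 to 182 below. Arrays correlated across probe sets at 0.970 to 0.983 within 4C and at 0.937 to 0.974 within 2C, while arrays of different classes correlated at 0.928 to 0.977.

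Transcripts of photosynthesis, which mark shoot tissue, set 2C replicate 1 apart. The mean log2 signal of the 9 measured shoot and photosynthesis genes was 5.65, 5.35 and 6.33 on the 4C arrays, against 7.83, 5.37 and 5.75 on the arrays of 2C replicates 1, 2 and 3. In 8 of the 9 genes, 2C replicate 1 was over 1 log2 unit above both other 2C arrays. PSAE-1, a subunit of photosystem I, read 6.01, 5.32 and 6.78 in 4C, against 9.90, 5.42 and 5.89 in 2C. The dimmest of the list in 4C were PRK, at 4.11, 4.09 and 4.78, and LHCB4.3, at 4.57, 4.44 and 4.57. Transcripts that respond to wounding, touch and heat ran the other way. The mean of 12 such genes was 7.45, 7.41 and 7.59 in 4C, against 6.11, 7.59 and 7.81 in 2C, and 8 of the 12 were lowest of the 6 arrays in 2C replicate 1. The value without 2C replicate 1 is therefore given beside each call of a named gene that it changed, and beside each named gene whose printed change it moved by over 1.5 times.

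**Figure D1:**
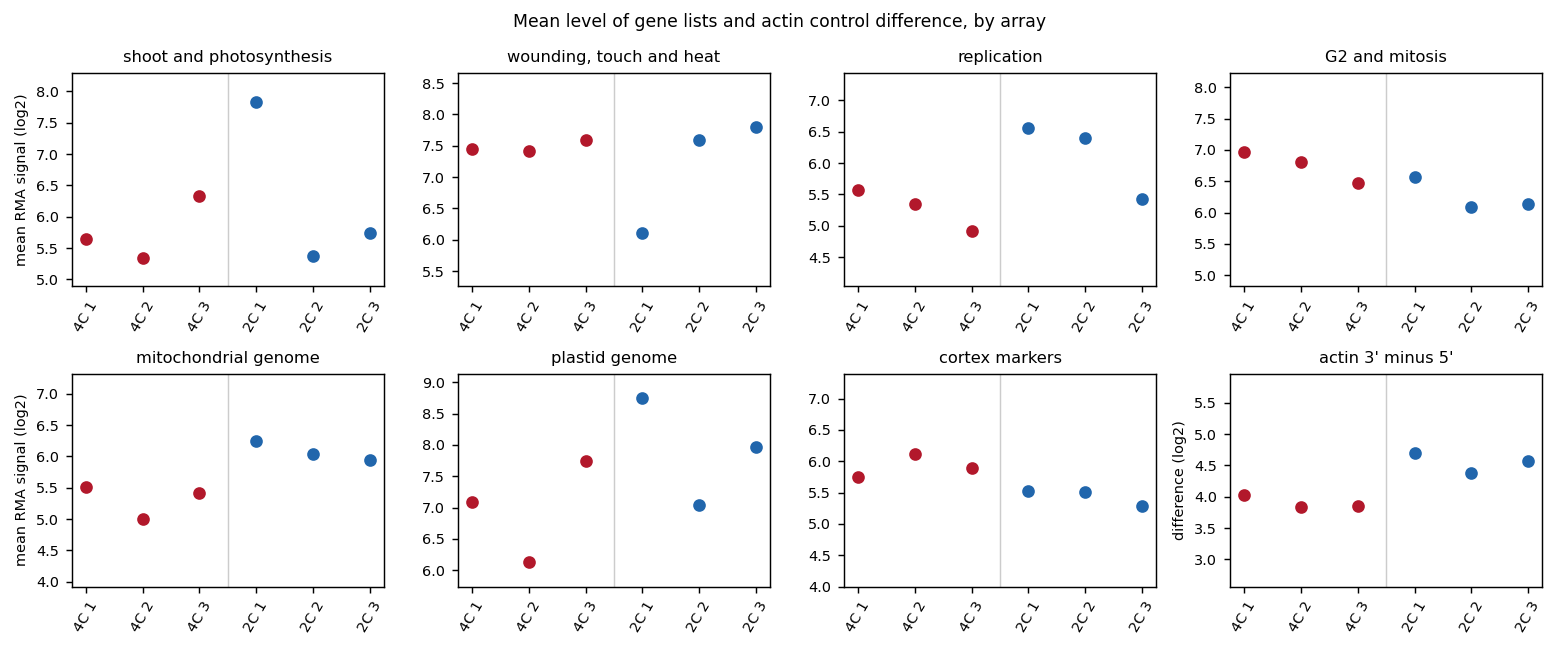
Mean log2 RMA signal of the measured genes of 7 lists, and the difference between the 3′ and 5′ control probe sets of actin (last panel), on each array of 4C (red) and 2C (blue). Each point is 1 array and each panel spans 3.4 log2 units. The array of 2C replicate 1 stands apart in the shoot and wounding panels. The mitochondrial, cortex marker and actin panels separate the classes, and the replication panel and the G2 and mitosis panel nearly do.

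Among the controls of RNA quality, those of actin differed between the classes, while those of GAPDH and ubiquitin did not separate them. For actin, the 3′ control probe set read above the 5′ one by 4.03, 3.83 and 3.85 log2 units in 4C, against 4.70, 4.38 and 4.57 in 2C, without overlap. The difference of -0.65 had an exact two-sided permutation p of 0.1, the smallest that 3 against 3 arrays can give. Any measure without overlap gives this p, so that it adds nothing to the lack of overlap. The same measure for GAPDH was 5.03, 5.57 and 5.01 in 4C, against 5.13, 4.99 and 4.42 in 2C, with overlap. For ubiquitin it was 3.07, 3.10 and 2.94 in 4C, against 3.14, 2.98 and 2.57 in 2C, also with overlap. A second pair of control probe sets separated the classes for actin and overlapped for GAPDH and ubiquitin. The part of shoot transcripts and of the actin difference in the results below was not tested.

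Which transcripts differed between 4C and 2C nuclei was asked with a linear model over all 12 arrays in limma, with Benjamini-Hochberg adjustment across the whole array and a threshold of 0.05. The 4C nuclei had lower transcripts of 2 replication genes, of a defensin, of an expansin-like protein and of a tetraspanin, and higher transcripts of WRKY6, of OASA2 and of a set of genes known by locus code. The test called 137 probe sets, or 0.602%, of which 80 were higher in 4C (0.352%) and 57 lower (0.251%). All 137 had 4C and 2C arrays that did not overlap, as had 3649 probe sets in all (16.0%), 1765 of them higher (7.76%) and 1884 lower (8.28%). A single gene was matched to 71 of the called probe sets, 42 higher and 29 lower. Another 61 had no gene in the table, and 5 had several. Of the 42 rises 2 carried a symbol, and of the 29 falls 15 did. The median change over all probe sets was 0.0044.

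The calls were close to the limit of the design. With only the 6 arrays of 4C and 2C, 0 probe sets passed in limma (smallest adjusted p = 0.197), although 2191 had an unadjusted p under 0.05. Each of the 137 had an unadjusted p under 0.05 in that fit as well, but the same values had chosen them, so that this is no separate support. Without 2C replicate 1, 178 probe sets passed, 98 higher and 80 lower, and 82 of the 137 were among them. Without 2C replicate 3, 438 passed, and without 1 of the 4C arrays 38 or 39.

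**Figure D2:**
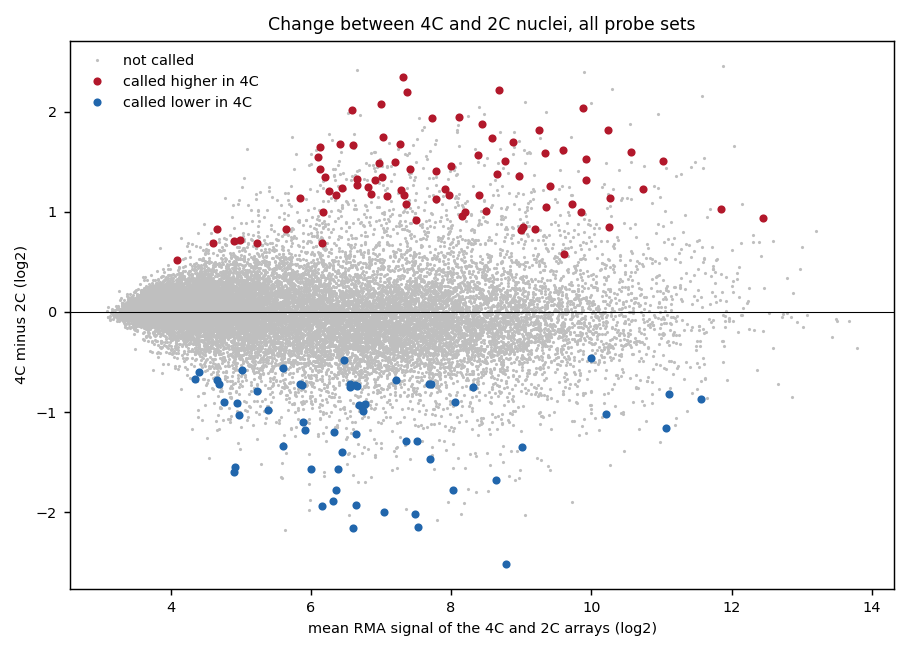
Change between 4C and 2C nuclei (log2, vertical) against the mean log2 RMA signal of the 6 arrays (horizontal) for all 22746 probe sets. The 80 probe sets called higher in 4C are red, the 57 called lower are blue and the rest are grey; called probe sets averaged between 4.09 and 12.4, with a median of 7.20.

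Genes of the replication machinery were lower in 4C nuclei at 5 of 6 measured members, against 47.0% of all genes. Of the 6, 2 fell past the threshold, where 0.251% of all probe sets did. At 4 of the 6 the classes did not overlap, with 4C the lower, as at 8.28% of all probe sets. The gene lists were chosen with earlier results of these data known. Such shares, here and below, therefore describe the lists and are no test of them. PRL, also called MCM7 or PROLIFERA, a subunit of the helicase that opens DNA at origins, had signals of 5.64, 5.55 and 5.38 in 4C, against 8.23, 7.96 and 6.85 in 2C. All 4C arrays lay more than 1 unit under the lowest 2C array. Its mean was 5.52 ± 0.13 in 4C and 7.68 ± 0.73 in 2C (SD, n = 3 each). PRL fell by 2.16 ± 0.28 log2 units (SE), or 4.46-fold, with an adjusted p of 0.0129 in limma. PRL passed in 21 of 26 alternative settings, the one without 2C replicate 1 included (change -1.88, adjusted p = 0.0148). Without 4C replicate 2 or 4C replicate 3 it just missed, with adjusted p-values of 0.0505 and 0.0537 in limma.

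POLA3, a primase subunit that works with DNA polymerase alpha, had signals of 5.64, 5.55 and 5.23 in 4C, against 7.58, 7.84 and 6.33 in 2C. The classes did not overlap, and 2C replicate 3 was the lowest of its class, as it was for PRL. POLA3 fell by 1.78 ± 0.32 log2 units (SE, adjusted p = 0.0435 in limma). It passed in 11 of 26 alternatives, with adjusted p between 0.000516 and 0.368, and not without 2C replicate 1 (change -1.61, adjusted p = 0.0787). Of the 12 fits that left out 1 array, only the one without 2C replicate 3 kept the call (change -2.24, adjusted p = 0.000516).

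The other polymerase subunits measured were also lower in 4C on each array, without passing. POLD3, a subunit of DNA polymerase delta, read 5.37, 4.92 and 4.74 in 4C, against 6.65, 6.65 and 5.40 in 2C (change -1.23 ± 0.30, SE, adjusted p = 0.104 in limma). ICU2, which carries the catalytic activity of polymerase alpha, read 4.38, 4.49 and 4.08 in 4C, against 6.08, 5.39 and 4.68 in 2C (change -1.07 ± 0.28, adjusted p = 0.119). Neither overlapped between the classes, and in both 2C replicate 3 was closest to the 4C arrays. Without 2C replicate 3 they had adjusted p-values of 0.00321 and 0.0106 in limma. Over all alternatives the adjusted p lay between 0.00321 and 0.518 for POLD3 and between 0.0106 and 0.454 for ICU2. PSF2, a subunit of the GINS complex at the fork, was dim on all 6 arrays, between 3.87 and 4.45 in 4C and between 4.22 and 4.96 in 2C (change -0.32, adjusted p = 0.522).

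TOPII, the topoisomerase that untangles replicated chromosomes, was the member of the replication list with a change above 0. It had signals of 8.05, 7.18 and 6.15 in 4C, against 6.35, 5.57 and 5.06 in 2C. The lowest 4C array lay under the highest 2C array, so that the classes overlapped, although replicates ranked in the same order in both. The change of 1.47 ± 0.42 (SE) did not pass in limma (adjusted p = 0.153), nor in any of the 26 alternatives. The median change over the 6 genes of the list was -1.15, against 0.013 over all 13356 genes with a probe set of their own. Without 2C replicate 1 it was -0.87, with PRL alone called.

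Genes around the replication machinery were measured in small numbers. Of 3 regulators of the step into S phase, 0 passed in limma. SKP2A, an F-box protein that marks cell cycle factors for destruction, read 6.07, 6.79 and 7.96 in 4C, against 7.48, 8.10 and 9.10 in 2C (adjusted p = 0.354). Its classes overlapped. Of 8 histone genes, 0 passed and 6 had changes below 0, against 47.0% of all genes. Their median change was -0.31, and -0.17 without 2C replicate 1. HON4, a linker histone, read 7.96, 7.18 and 7.64 in 4C, against 8.65, 8.06 and 7.97 in 2C, barely without overlap (adjusted p = 0.352). HTB11, an H2B gene, read 5.89, 5.79 and 4.88 in 4C, against 6.95, 6.18 and 5.81 in 2C, with overlap (adjusted p = 0.322). Of 4 genes of chromatin assembly, among them the H3-H4 chaperone ASF1B, 0 passed, with changes between -0.46 and 0.29. Of 12 DNA repair genes 0 passed, with a median of -0.08.

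Genes of G2 and mitosis had changes above 0 at 9 of 10 measured members, against 53.0% of all genes, but 0 of the 10 passed in limma. At 2 of the 10 the classes did not overlap, with 4C the higher, as at 7.76% of all probe sets. AUR2, an Aurora kinase of the mitotic spindle and cell plate, had the greatest change of the list. It read 9.45, 8.14 and 9.39 in 4C, against 7.65, 6.07 and 7.82 in 2C. Each 4C array lay above each 2C array. The arrays within a class differed by more than 1 unit, with replicate 2 the lowest in both classes. The change was 1.82 ± 0.52 (SE, adjusted p = 0.151 in limma), and it passed in 0 of 26 alternatives, those with replicate number as a block included. AUR1, its close relative, read 7.86, 8.02 and 7.09 in 4C, against 8.02, 7.05 and 6.89 in 2C (change 0.34, adjusted p = 0.666, and 0.68 without 2C replicate 1, adjusted p = 0.254). AUR3, the Aurora kinase of centromeres, read 5.32, 5.25 and 4.40 in 4C, against 4.59, 4.38 and 4.43 in 2C (change 0.52, adjusted p = 0.297). In both genes 4C replicate 3 was the lowest of its class. The classes of AUR1 overlapped through 2C replicate 1, and those of AUR3 through 4C replicate 3. Without 4C replicate 3, AUR3 passed (change 0.82, adjusted p = 0.0474 in limma).

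The spindle checkpoint genes also had changes above 0 without passing. BUBR1, which holds back anaphase, read 6.34, 5.36 and 5.13 in 4C, against 5.33, 4.35 and 4.41 in 2C, with overlap (change 0.91, adjusted p = 0.242). BUB3.2 was dim but separate, with 4.45, 4.55 and 4.52 in 4C, against 4.39, 4.26 and 4.2003 in 2C (change 0.23, adjusted p = 0.244). BUB3.1 read 6.03, 6.21 and 5.34 in 4C, against 5.91, 5.37 and 4.81 in 2C (change 0.50, adjusted p = 0.532, and 0.77 without 2C replicate 1). The array of 2C replicate 1 was the highest of its class for each of these checkpoint genes and for TOPII and AUR1. Without it the median change of the 10 genes was 0.50, against 0.30 with it, and 0 genes passed. KINESIN-12B and TON1B, of the preprophase band and phragmoplast, KEU, a vesicle fusion factor of the cell plate, and KINESIN-13A had changes between -0.01 and 0.27, or between 0.07 and 0.40 without 2C replicate 1.

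**Figure D3:**
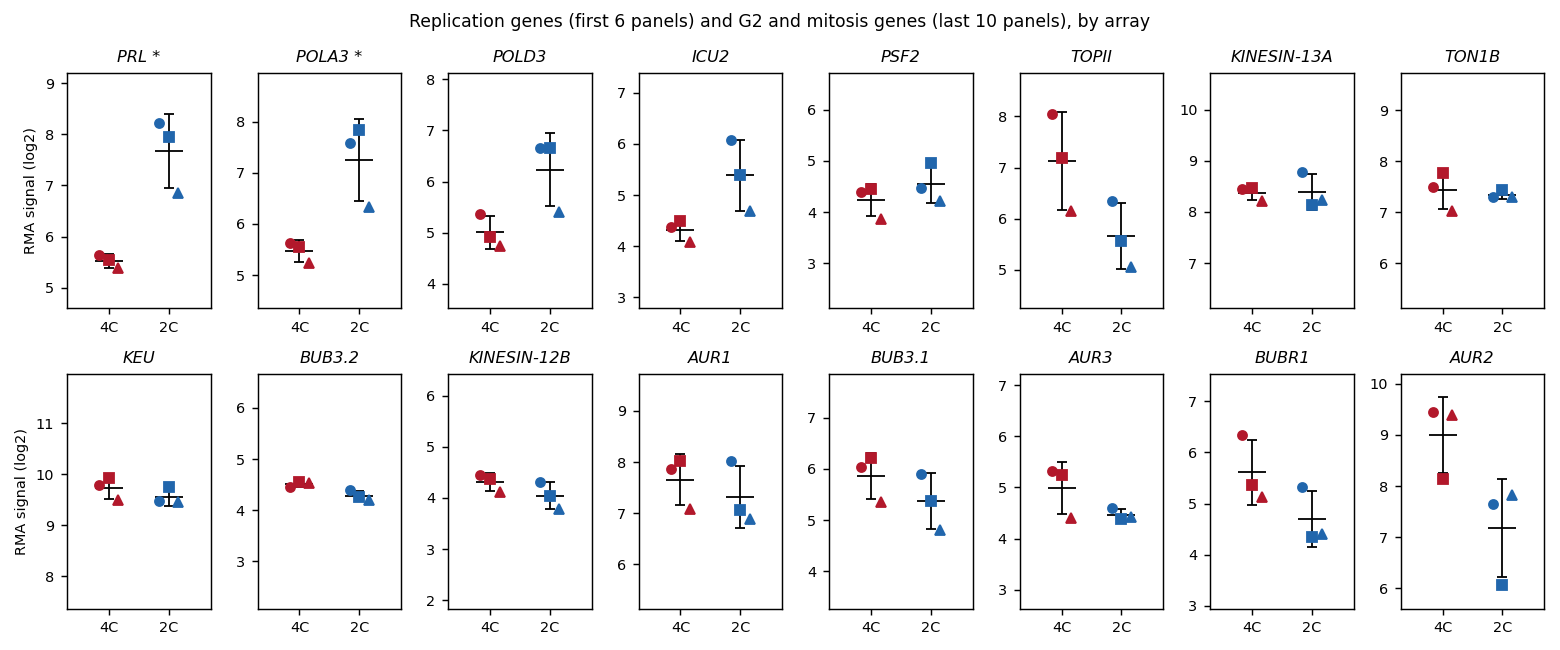
Log2 RMA signal of each measured replication gene (PRL to TOPII) and each G2 and mitosis gene (KINESIN-13A to AUR2), in 4C (red, left) and 2C (blue, right). Circles, squares and triangles are replicates 1, 2 and 3, the line is the mean with its SD, each panel spans 4.6 log2 units, and an asterisk marks the 2 genes called. PRL, POLA3, POLD3, ICU2, AUR2 and BUB3.2 do not overlap between the classes.

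Regulators of the endocycle gave 0 calls. Of 5 measured genes 0 passed in limma and 0 had arrays without overlap, where 0.602% and 16.0% of all probe sets did. At these shares 0 of so few genes says little about them, here and in the other short lists with 0 calls. Changes lay between -0.28 and 0.08, and between -0.27 and 0.29 without 2C replicate 1. SIM, which inhibits cyclin-dependent kinases and drives endocycles in leaf hairs, read 6.50, 6.09 and 6.41 in 4C, against 7.32, 5.86 and 6.32 in 2C (change -0.17 ± 0.30, SE, adjusted p = 0.847). The sign turned without 2C replicate 1, with a change of 0.24. The other members, HBT and CDC27a of the anaphase-promoting complex, its regulator SAMBA, and BIN4 of the topoisomerase VI complex, also overlapped.

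The cell cycle genes differed in where along the classes they were highest. PRL averaged 7.68, 5.52, 4.302 and 4.88 in 2C, 4C, 8C and 16C, and POLA3 averaged 7.25, 5.47, 5.07 and 5.34. TOPII averaged 5.66, 7.13, 4.79 and 5.44, and AUR2 averaged 7.18, 8.99, 5.75 and 7.27. TOPII and AUR2 thus had their highest class mean in 4C, and PRL and POLA3 in 2C. The choice of these genes by their change between 4C and 2C fixed the order of those classes. The comparisons along these classes share the 4C or 2C arrays.

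Several of the largest falls outside replication were in 1 gene of a family whose other measured members did not pass. LCR69, a plant defensin also listed as PDF2.2, had the largest fall of a named gene. It read 8.28, 6.93 and 7.36 in 4C, against 10.7, 10.1 and 9.32 in 2C, more than 1 unit apart at the closest arrays. LCR69 fell by 2.51 ± 0.44 log2 units (SE), or 5.71-fold (adjusted p = 0.0426 in limma), and it passed in 11 of 26 alternatives. Without 2C replicate 1 it missed the threshold (change -2.19, adjusted p = 0.0642). Of 18 defensin-like and small secreted proteins measured, 1 fell, where 0.251% of all probe sets did, and the median change was 0.01. LCR68, the next of the list, had signals of 8.23, 7.51 and 6.01 in 4C, against 9.75, 8.24 and 6.86 in 2C, with overlap (change -1.03, adjusted p = 0.588). Its change without 2C replicate 1 was -0.30 (adjusted p = 0.925).

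EXLB1, an expansin-like protein of the wall, was the 1 of 19 measured expansin genes that passed, where 0.602% of all probe sets did. It read 6.31, 6.17 and 5.68 in 4C, against 7.86, 8.75 and 7.53 in 2C, without overlap. It fell by 2.00 ± 0.27 log2 units (SE, adjusted p = 0.0150 in limma) and passed in 21 of 26 alternatives, the one without 2C replicate 1 included. The other expansins did not pass, and their median with EXLB1 was 0.04. EXLA3 was lower in 2C replicate 1 than on the other arrays, with 11.7, 11.1 and 11.2 in 4C, against 7.80, 12.4 and 12.2 in 2C (change 0.53, adjusted p = 0.850). Without that array the sign turned, with a change of -0.97 (adjusted p = 0.0584). EXPB2, a beta-expansin, read 5.29, 5.03 and 5.38 in 4C, against 4.58, 4.63 and 5.04 in 2C (change 0.48, adjusted p = 0.145). It overlapped by the lowest 4C and the highest 2C array.

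TET5, a tetraspanin of the plasma membrane, had the smallest adjusted p among the falls after PWD. It read 5.67, 5.59 and 5.78 in 4C, against 7.73, 7.05 and 8.04 in 2C. TET5 fell by 1.93 ± 0.22 log2 units (SE, adjusted p = 0.00658 in limma) and passed in 24 of 26 alternatives. PWD, at locus AT4G24450 and also listed as ATGWD2, a glucan water dikinase, read 4.11, 4.23 and 3.97 in 4C, against 5.997, 5.70 and 5.42 in 2C. PWD fell by 1.601 ± 0.16 log2 units (SE, adjusted p = 0.00642 in limma). Its 4C signals were among the dimmest on the arrays, where background limits how low a signal reads.

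Enzymes of secondary metabolism gave 2 falls and 0 rises among 27 measured genes, where 0.251% of all probe sets fell and 0.352% rose, with a list median of 0.06. BGLU44, a beta-glucosidase, read 5.50, 5.44 and 5.17 in 4C, against 7.82, 7.38 and 6.58 in 2C (change -1.89 ± 0.25, SE, adjusted p = 0.0129 in limma). FMO, a flavin monooxygenase, read 8.42, 7.41 and 7.58 in 4C, against 8.99, 9.92 and 9.53 in 2C (change -1.68 ± 0.27, adjusted p = 0.0331). Neither overlapped, and both passed without 2C replicate 1. The remaining beta-glucosidases, BGLU40 to BGLU43 and BGLU45 to BGLU47, had changes between -0.18 and 0.51, or between -0.46 and 0.46 without 2C replicate 1, and did not pass. GSTU26, a tau glutathione transferase, had a change of 1.33 that did not pass (adjusted p = 0.281) and was 0.73 without 2C replicate 1. It read 8.77, 8.33 and 7.94 in 4C, against 5.80, 7.43 and 7.81 in 2C.

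Smaller falls were called in a glycosyltransferase and a brassinosteroid receptor. Of 43 measured glycosyltransferases of small molecules, 6 were separate with 4C higher and 5 with 4C lower, against 7.76% and 8.28% of all probe sets. Of the 43, 1 passed, where 0.602% of all probe sets did. That gene, UGT85A5, read 5.40, 5.41 and 5.69 in 4C, against 6.36, 6.17 and 6.16 in 2C (change -0.73 ± 0.13, SE, adjusted p = 0.0433 in limma). BRL1, a relative of the brassinosteroid receptor BRI1 known from vascular tissue, was the 1 of 8 measured genes of gibberellin, brassinosteroid, abscisic acid and ethylene that passed, with 4.11, 4.02 and 3.91 in 4C, against 4.76, 4.48 and 4.80 in 2C (change -0.67 ± 0.11, adjusted p = 0.0390). Both genes had tight classes without overlap. The 4C signals of BRL1 lay under the lower quartile of all probe sets (4.23), where background limits how low a signal reads. Both missed the threshold without 2C replicate 1, with adjusted p-values of 0.0787 and 0.0640 in limma and almost the same changes.

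Apart from nad5, a mitochondrial gene described below, the rest of the 15 largest falls had no symbol that says what they do. AT1G78780 read 7.38, 7.05 and 6.97 in 4C, against 8.99, 9.26 and 8.48 in 2C (change -1.78, adjusted p = 0.0129 in limma). AT5G03610 was among the brighter falls, with 8.60, 8.30 and 8.13 in 4C, against 9.26, 9.98 and 9.85 in 2C (change -1.35, adjusted p = 0.0179). AT1G19540, AT5G48690, AT2G07707 and orfX had changes of -1.57, -1.34, -1.40 and -1.29. The probe sets of AT2G07707 and orfX were of shared type, which can also bind related transcripts. AT2G07707 was assigned to chromosome 2 and orfX to none, so that neither was counted with the mitochondrial genes below. Of the 15 falls, 10 passed without 2C replicate 1, and those that missed were LCR69, POLA3, nad5, AT2G07707 and orfX.

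**Figure D4:**
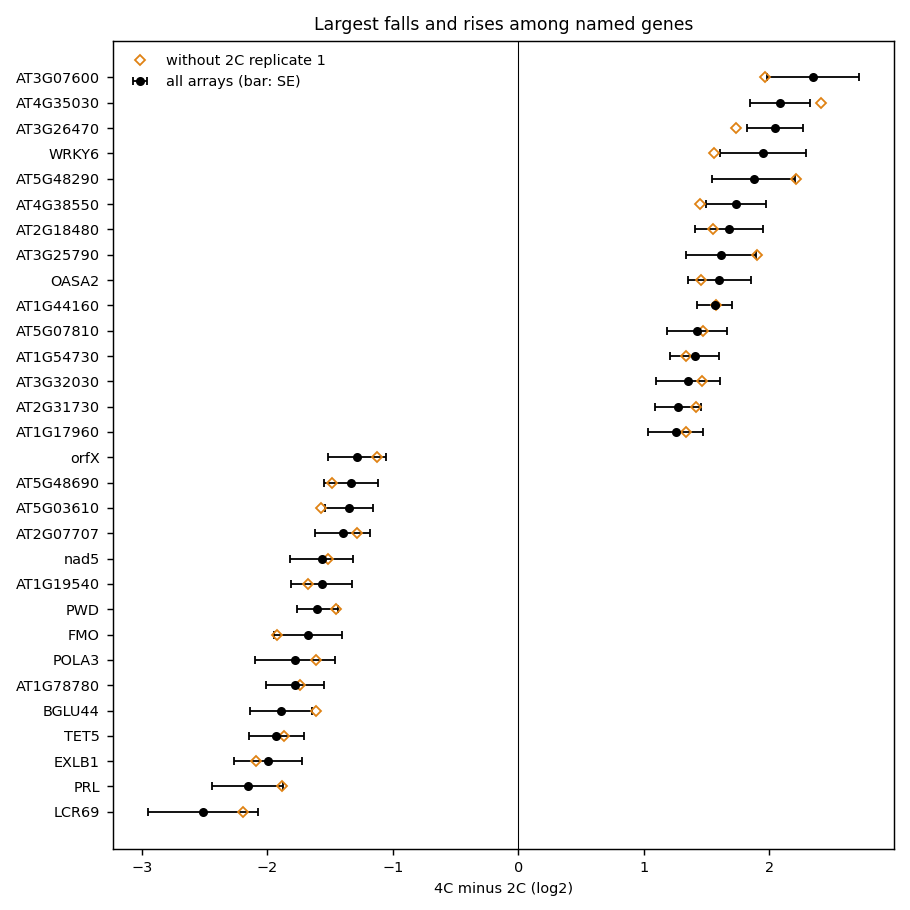
Change between 4C and 2C nuclei (log2, horizontal) of the 15 largest rises (top) and 15 largest falls (bottom) among called genes with a probe set of their own. Black points are the fit over all arrays with the SE, and open diamonds are the fit without 2C replicate 1, in which 21 of the 30 passed.

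Rises in 4C nuclei were led by genes known by locus code only, for which no function is given here. AT3G07600 had the largest rise, with 8.45, 8.18 and 8.83 in 4C, against 5.38, 6.45 and 6.60 in 2C (change 2.35 ± 0.37, SE, 5.08-fold, adjusted p = 0.0297 in limma). AT4G35030 read 8.27, 7.95 and 7.92 in 4C, against 6.62, 5.53 and 5.75 in 2C (change 2.08 ± 0.24, adjusted p = 0.00668). AT3G26470 was among the brightest, with 10.8, 11.01 and 10.9 in 4C, against 8.25, 9.14 and 9.18 in 2C (change 2.04 ± 0.22, adjusted p = 0.00642). In these 3 genes the classes lay more than 1 unit apart at the closest arrays, and all 3 passed without 2C replicate 1. AT1G44160 had the smallest adjusted p of the named genes, with 8.89, 9.21 and 9.39 in 4C, against 7.63, 7.54 and 7.64 in 2C (change 1.56 ± 0.14, adjusted p = 0.00445).

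WRKY6, a transcription factor known from phosphate transport and leaf senescence, rose in 4C nuclei. It read 9.40, 8.99 and 8.86 in 4C, against 6.34, 7.22 and 7.84 in 2C, without overlap. The rise was 1.95 ± 0.34 log2 units (SE), or 3.87-fold (adjusted p = 0.0431 in limma), in 12 of 26 alternatives, and 1.56 without 2C replicate 1 (adjusted p = 0.0381). WRKY6 was 1 of 12 measured wounding and handling genes, and the 1 of them that passed, where 0.602% of all probe sets did. Others of that list, such as WRKY53 with 8.19, 7.81 and 7.15 in 4C, against 4.93, 8.18 and 7.56 in 2C, were low in 2C replicate 1 alone. The median change of all 12 genes of the list, WRKY6 included, was -0.27 without that array. PDC2, a pyruvate decarboxylase of fermentation, lay on the other side with 5.88, 5.31 and 5.25 in 4C, against 6.42, 6.74 and 6.99 in 2C (change -1.24, adjusted p = 0.135).

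Of 8 nutrient genes measured 1 passed, where 0.602% of all probe sets did. That gene, OASA2, was annotated as an isoform of O-acetylserine (thiol) lyase, a family that makes cysteine. It read 11.1, 11.2 and 11.8 in 4C, against 9.46, 9.47 and 10.4 in 2C. The rise was 1.602 ± 0.25 log2 units (SE), or 3.03-fold (adjusted p = 0.0317 in limma), and 1.45 without 2C replicate 1, where it just missed the threshold (adjusted p = 0.0502). WRKY47, a second WRKY factor, read 7.36, 7.66 and 7.59 in 4C, against 5.81, 6.34 and 7.02 in 2C, without overlap (change 1.14, adjusted p = 0.136). WRKY6 and WRKY47 were on a list of transcription factors with 14 measured genes, mostly of the WRKY and bHLH families. WRKY6 was the 1 of the 14 that passed, where 0.602% of all probe sets did.

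The other large rises were AT5G48290 (1.87), AT4G38550 (1.73), AT2G18480 (1.68), AT3G25790 (1.62), AT5G07810 (1.42), AT1G54730 (1.403), AT3G32030 (1.35), AT2G31730 (1.27) and AT1G17960 (1.25), all as log2 change. Of the 15 rises, 11 passed without 2C replicate 1, and those that missed were OASA2, AT2G18480, AT5G07810 and AT3G32030. AT4G38550 and AT3G32030 were read by probe sets of shared type. AT5G48290 read 9.82, 9.05 and 9.26 in 4C, against 8.18, 7.29 and 7.05 in 2C. AT3G25790 read 10.4, 10.5 and 10.3 in 4C, against 9.37, 8.76 and 8.24 in 2C, the 4C arrays within 0.2 units of each other. AT1G17960 averaged 8.79, 10.0, 11.1 and 12.2 in 2C, 4C, 8C and 16C, and OASA2 averaged 9.76, 11.4, 12.6 and 12.5. AT3G07600 averaged 6.14, 8.49, 9.10 and 8.02 in the same order.

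Wall-loosening enzymes other than the expansins gave 0 calls at the first doubling. Of 30 xyloglucan, glucanase and pectin enzymes 0 passed in limma, with 23 changes above 0, against 53.0% of all genes, and a median of 0.09. XTH18, a xyloglucan transglucosylase of the root, read 9.60, 9.72 and 10.3 in 4C, against 6.25, 9.39 and 9.86 in 2C. Its change was 1.37 (adjusted p = 0.438) and 0.24 without 2C replicate 1 (adjusted p = 0.738). XTH19 read 5.60, 5.60 and 6.17 in 4C, against 4.09, 5.28 and 5.95 in 2C, with a change of 0.69 that was 0.18 without 2C replicate 1. XTH20 had a change of 0.03, and of -0.06 without that array. GH9B5 and GH9B16, endoglucanases of the GH9 family, did not overlap but were dim, with changes of 0.28 and 0.34 that did not pass. The change of GH9B16 was 0.20 without 2C replicate 1.

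Genes of wall matrix synthesis and peroxidases gave 0 calls. Of 15 wall matrix genes 0 passed, with a median of 0.04. CSLD2, a cellulose synthase-like protein of root hairs, read 10.2, 10.2 and 10.8 in 4C, against 7.83, 10.0 and 10.7 in 2C. Its change was 0.87 (adjusted p = 0.542 in limma), and 0.03 without 2C replicate 1. Of 7 class III peroxidases 0 passed. PRXR1 was bright and did not overlap, with 10.8, 10.5 and 10.7 in 4C, against 11.3, 10.9 and 11.1 in 2C (change -0.44, adjusted p = 0.189 in limma).

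Auxin genes gave 0 calls among 19 measured, with a median of 0.01. LBD16, an auxin-induced factor of lateral root founding, read 8.25, 7.90 and 8.05 in 4C, against 9.84, 9.08 and 8.35 in 2C. The classes did not overlap, and the change of -1.02 ± 0.32 (SE) did not pass (adjusted p = 0.183 in limma), and it was -0.65 without 2C replicate 1 (adjusted p = 0.309). YUC6, an enzyme of auxin synthesis, read 5.66, 5.59 and 5.67 in 4C, against 6.50, 6.26 and 5.70 in 2C (change -0.52, adjusted p = 0.214). Without 2C replicate 3, LBD16 and YUC6 passed, with adjusted p-values of 0.0305 and 0.0197. GH3.3, which conjugates auxin, was at 6.17, 6.30 and 6.13 in 4C, against 5.58, 6.48 and 8.29 in 2C. Its 2C spread of over 2 units covered the 4C class.

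Cytochromes P450 gave 0 calls among 24, with 18 changes above 0, against 53.0% of all genes, and a median of 0.12. CYP71B34 read 6.02, 5.93 and 5.84 in 4C, against 5.58, 5.20 and 5.07 in 2C (change 0.65 ± 0.17, SE, adjusted p = 0.116 in limma). CYP718 read 6.49, 7.07 and 6.86 in 4C, against 6.32, 5.97 and 5.89 in 2C (change 0.75, adjusted p = 0.195). Neither overlapped between the classes. Of the glycosyltransferases, UGT76D1 had the greatest change above 0, with 6.67, 7.20 and 7.33 in 4C, against 5.95, 5.59 and 6.39 in 2C (change 1.09, adjusted p = 0.193).

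**Figure D5:**
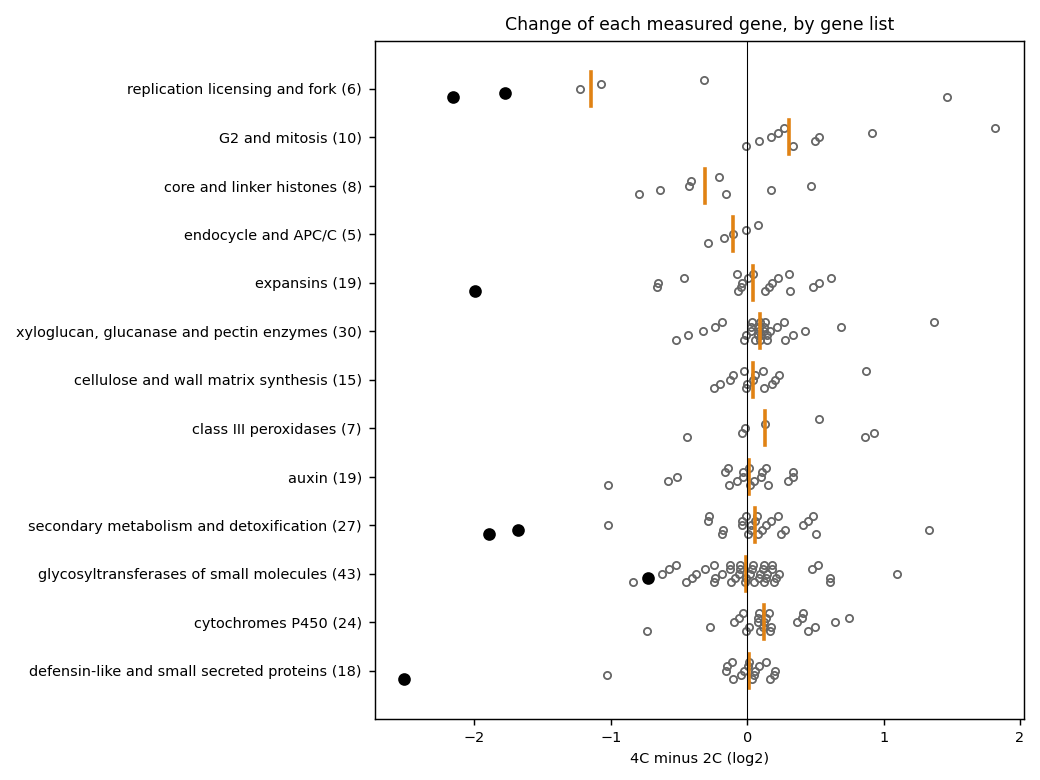
Change between 4C and 2C nuclei (log2, horizontal) of each measured gene in 13 lists, with the number measured in parentheses. Filled points are called genes, open points are genes not called, and the orange line is the median of the list, lowest for replication at -1.15; vertical scatter within a row only separates the points.

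Markers of the sorted tissue were measured at 3 genes and read near the median probe set of 5.34, so that their detection was not established. JKD, a ground tissue transcription factor, read 5.92, 6.07 and 5.82 in 4C, against 5.39, 5.71 and 5.45 in 2C, without overlap (change 0.42 ± 0.12, SE, adjusted p = 0.145 in limma). AT3G21670, on the cortex list together with JKD and CYP71B34, read 5.28, 6.35 and 6.02 in 4C, against 5.60, 5.64 and 5.32 in 2C. The mean over the 3 cortex markers was 5.74, 6.12 and 5.89 in 4C, against 5.52, 5.52 and 5.28 in 2C, and 0 of the 3 passed. GSO1, a receptor kinase needed for the endodermal barrier, read 5.59, 5.52 and 5.93 in 4C, against 4.96, 4.42 and 5.08 in 2C (change 0.86 ± 0.20, adjusted p = 0.0902). Of 3 vascular markers, PHV, a class III homeodomain factor, was separate, with 8.32, 8.48 and 8.16 in 4C, against 9.06, 9.05 and 9.07 in 2C (change -0.74, adjusted p = 0.210). Of all probe sets, 8.28% were separate with 4C lower. LHW and OPS overlapped, with changes of -0.27 and -0.18, or 0.06 and -0.13 without 2C replicate 1. The mean of the 3 vascular markers was between 6.13 and 6.56 in 4C and between 6.49 and 7.00 in 2C, the highest in 2C replicate 1. Of 4 epidermis and root hair markers, among them EXPA7 and EXPA18, 0 passed and 0 were separate, with means between 5.51 and 5.66 in 4C and between 5.53 and 5.73 in 2C. The part of vascular transcripts in the falls, BRL1 included, was not tested.

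Transcripts of the organelle genomes, which lie outside the nucleus, included 3 that fell in 4C. Of 11 mitochondrial genes measured, 3 fell, where 0.251% of all probe sets did. At 7 of the 11 the classes did not overlap, with 4C lower, as at 8.28% of all probe sets. Changes were below 0 at 9 of the 11, against 47.0% of all genes, with a median of -0.60. The fallen genes were nad5, nad4L and nad9, subunits of respiratory complex I. Their changes were -1.57 ± 0.25, -1.10 ± 0.18 and -1.03 ± 0.19 (SE), with adjusted p-values of 0.0320, 0.0389 and 0.0446 in limma. The probe set of nad5 was of shared type, and the second one of the gene had a change of -0.96 (adjusted p = 0.0866). Without 2C replicate 1 their adjusted p-values were 0.0505, 0.0597 and 0.0832, while nad6 passed there (change -1.17, adjusted p = 0.0348). The mean over the 11 genes was 5.52, 5.00 and 5.41 in 4C, against 6.25, 6.04 and 5.94 in 2C.

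Plastid genes also had changes below 0, with a wide spread between arrays. Of 69 measured, 68 had changes below 0, against 47.0% of all genes, and 0 passed in limma, with a median of -0.997. At 1 of the 69 the classes did not overlap, with 4C lower, against 8.28% of all probe sets. Without 2C replicate 1, 66 of the 69 had changes below 0 and the median was -0.55. Their mean was 7.08, 6.13 and 7.75 in 4C, against 8.75, 7.03 and 7.97 in 2C. The highest 2C value was again that of replicate 1, the array high in nuclear photosynthesis genes.

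Further lists gave 0 calls in limma. The 9 meristem regulators had a median change of 0.02 (-0.08 without 2C replicate 1), the 5 ribosome and nucleolus genes -0.12, the 3 vacuole genes -0.22 and the 4 cytokinin genes 0.04. Of the reference genes, PEX4 and GAPC2 were measured, with changes of -0.04 and -0.03, and of -0.02 and 0.17 without 2C replicate 1.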

How the data were processed

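The deposited log2 signals, 1 per probe set, were produced by the authors with RMA, per the submitters' processing notes. Its version and a genome build are not stated in the labels or files. About 45 to 100 ng of RNA per sample went through 2 rounds of amplification before hybridisation, per the labels' protocols. Precision is limited by the small number of arrays.

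The 64 control probe sets were left out. limma 3.58.1 in R 4.3.3 (lmFit, eBayes) was fitted over all 12 arrays without a block, so that the classes shared 1 estimate of the spread. Adjusted p-values are Benjamini-Hochberg over 22746 probe sets (threshold 0.05). Changes are 4C minus 2C with the moderated SE; class means have SDs. The fit was tested on simulated data, in which it called 66 of 100 changes of 1 log2 unit and 94 of 100 of 2, with 10 false calls. The simulation had the same spread in every class and no array that stood apart. It cannot show how the fit handles the unequal spread of these arrays.

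Names came from the platform's probe table, updated through TAIR10.1 (13436 of 13513 single-gene probe sets matched). For a gene with several, the brightest was used. Named were, among called genes without overlap, the 15 with the largest rises and 15 with the largest falls, per list each called member and up to 4 more by p, and fixed genes of the cell cycle, auxin, wall and ground tissue. Of these, SCL28, CO2 and BRX1-1 were not found by name in the tables used here, and SGN3 is listed there as GSO1. The comparison and the gene lists were chosen with earlier results of these data known.

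Same-numbered arrays of 4C and 2C deviated together at r = 0.0998, 0.410 and 0.435 from their class means, short of a pairing in every pair. Alternatives were other scalings, filters, variance models, blocks and leaving out each array.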

Additional observations from a re-analysis of the deposited data

How the results depend on the processing

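The count of 137 called probe sets (80 higher, 57 lower in 4C) depended on which arrays entered. It ranged from 38 to 438 when any 1 array was left out. The lowest values were 39, 39 and 38 without 4C replicates 1, 2 and 3, and the highest was 438 (162 higher, 276 lower) without 2C replicate 3. It was 178 without 2C replicate 1 and 76 without 2C replicate 2. It was 65 without 8C replicate 3 and 48, 48 and 61 without 16C replicates 1, 2 and 3, arrays that enter only through the shared spread. With the 6 arrays of 4C and 2C alone it was 0 (limma, 2191 at an unadjusted p under 0.05), and 0 without 2C replicate 1 in addition (2187), an alternative chosen after seeing the data. It was 40 with array weights by class and 29 without variance moderation. It was 71 with only the single-gene probe sets tested and 91 with a 2-fold minimum.

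With the replicate number as a fixed block it was 81, and as a random block 183. Every 4C array deviated most like the 2C array of its own number, which is a hint from the data and not from the design. The share of higher calls, 58.4%, was 37.0% without 2C replicate 3, 47.4% without 2C replicate 2 and between 53.0% and 69.2% otherwise, where any passed. Of the 34 named genes that were called, 20 passed in more than 1 of every 2 alternatives, and 0 changed sign in any. Their classes did not overlap, so that leaving out an array could not have turned a sign. Among the named genes not called, 12 passed in at least 1 alternative.

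The classes were unequally spread, with median SDs of 0.18 in 4C and 0.20 in 2C, against 0.16 in 8C and 0.12 in 16C. A spread shared by all 4 classes may understate that of 4C and 2C. No detection calls were used, so changes of dim probe sets such as PWD are limited by background.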
